A study of Rattus norvegicus with 4 samples.

Results

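Heat shock proteins and molecular chaperones were followed in primary cultures of rat oligodendrocyte precursors (OPCs), which divide and later mature into the myelinating cells of the brain. The members were a list of 10 genes, and every array probe whose RefSeq accession carried one of these symbols was taken. That gave 15 probes for 8 of the 10 genes, out of 45598 probes in all. Hspa1b and Dnajb1 matched no probe by accession, the only route searched, and their levels are not analysed here. The measured members were the small heat shock proteins Hspb1 and Hspb8, the large chaperones Hspa5, Hspa8, Hsph1, Hsp90aa1 and Hspd1, and the co-chaperone Hspe1.

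The cells came from rat cortex at postnatal day 2 and grew for 3 days with bFGF and PDGF. They were transfected with mimics of the microRNA miR-125a-3p (2 samples) or with a negative control RNA, miR-neg (2 samples), at 50 nM with Lipofectamine RNAiMax, and total RNA was taken 48 h later. All 4 samples were thus transfected, and no untransfected cells were measured. Each sample was hybridised to 1 single-colour Agilent array, labelled with Cy3 from 100 ng of RNA. Whether samples of 1 group are separate cultures is not stated in the labels. The p-values therefore reflect only how far these samples spread, which may be technical. The mature microRNA that the mimic copies is shown because it defines the treatment, with its seed (bases 2 to 8) in capitals. The sequence is RefSeq's on GRCr8, at chr1:67350727-67350748, strand +.
rno-miR-125a-3p: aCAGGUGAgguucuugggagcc

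Molecular chaperones bind unfolded proteins and help them fold, assemble or reach the machinery that degrades them. Hsp70, Hsp90 and chaperonin proteins use ATP, while the small heat shock proteins hold unfolded proteins without ATP and pass them on. Heat shock factor 1 (HSF1) induces many of these genes through heat shock elements, alternating repeats of a short GAA unit, and the unfolded protein response of the endoplasmic reticulum induces Hspa5 through its own element. In the brain, glial cells of several kinds make small heat shock proteins.

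The promoters of the members are shown because the members differ in the arrangement of these elements. RefSeq windows on GRCr8, from 250 bases before to 50 bases after the annotated start, were available for 8 of the 10 members, Dnajb1 among them, and were not used for Hsp90aa1 and Hspa1b. Pairs of facing units were searched as GAANNTTC and TTCNNGAA, each its own reverse complement. A triplet is both kinds of pair overlapping by 1 unit, so that 3 units alternate. Capitals mark these matches, and in Hspa5 the endoplasmic reticulum stress response element.
Hspb1, chr12:26432252-26432551, strand -: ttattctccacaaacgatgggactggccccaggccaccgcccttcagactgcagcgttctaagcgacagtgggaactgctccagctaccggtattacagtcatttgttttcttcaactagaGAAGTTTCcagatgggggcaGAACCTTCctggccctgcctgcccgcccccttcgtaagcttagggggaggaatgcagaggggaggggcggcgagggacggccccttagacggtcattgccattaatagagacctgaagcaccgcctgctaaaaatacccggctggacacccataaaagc
Hspb8, chr12:45837058-45837357, strand +: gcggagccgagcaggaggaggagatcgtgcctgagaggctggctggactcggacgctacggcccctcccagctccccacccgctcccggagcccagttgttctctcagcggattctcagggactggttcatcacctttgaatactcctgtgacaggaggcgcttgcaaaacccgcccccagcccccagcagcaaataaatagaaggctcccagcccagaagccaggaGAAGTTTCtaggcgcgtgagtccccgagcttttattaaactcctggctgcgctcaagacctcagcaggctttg
Hspa8, chr8:50080264-50080563, strand +: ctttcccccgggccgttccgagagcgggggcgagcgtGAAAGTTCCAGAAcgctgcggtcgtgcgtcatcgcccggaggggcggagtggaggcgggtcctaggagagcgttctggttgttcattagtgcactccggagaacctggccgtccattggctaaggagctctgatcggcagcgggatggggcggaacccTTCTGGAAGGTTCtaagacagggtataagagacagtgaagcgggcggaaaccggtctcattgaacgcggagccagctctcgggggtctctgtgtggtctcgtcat
Hspe1, chr9:64084077-64084376, strand +: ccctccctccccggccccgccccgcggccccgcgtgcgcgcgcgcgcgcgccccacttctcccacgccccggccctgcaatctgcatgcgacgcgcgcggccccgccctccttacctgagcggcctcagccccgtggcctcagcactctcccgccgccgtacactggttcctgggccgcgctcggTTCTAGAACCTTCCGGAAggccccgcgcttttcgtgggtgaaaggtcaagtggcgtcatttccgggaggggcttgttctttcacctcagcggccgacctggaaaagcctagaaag
Hspa5, chr3:38452766-38453065, strand +: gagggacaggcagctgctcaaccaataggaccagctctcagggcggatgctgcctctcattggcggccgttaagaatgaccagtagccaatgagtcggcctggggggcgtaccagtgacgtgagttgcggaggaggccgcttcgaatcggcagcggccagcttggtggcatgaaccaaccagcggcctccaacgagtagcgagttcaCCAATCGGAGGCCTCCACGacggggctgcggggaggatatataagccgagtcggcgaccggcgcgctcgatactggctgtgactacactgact
Hspb1 and Hspb8 held pairs and no exact triplet, with 2 GAANNTTC pairs in Hspb1 and 1 in Hspb8. Hspa8 held 2 separate triplets, Hspd1 and Hspe1 each held 2 that overlap, and Hsph1 held 1. Hspd1 and Hspe1 lie head to head on chromosome 9, so their windows overlap, and the capitals printed for Hspe1 are the stretch that Hspd1 holds on the other strand. The co-chaperone Dnajb1 held 2 pairs and no triplet, and the large chaperone Hspa5 held no pair, so the arrangement did not follow the classes. A pair was present in 7 of the 8 windows and a triplet in 4. Of 33469 RefSeq windows of the same length, 15.9% held either pair, 0.798% a triplet and 0.0657% the stress response element. The motif TATAAA was in 8.80% of all windows and in none of the 8. A match describes the letters of the window and does not show that a factor binds there.

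The question of the comparison was how added miR-125a-3p alters transcript levels in OPCs. Levels are log2 processed signals relative to the 75th percentile of each array, so a level of 0 lies at that percentile, and a change is the miR-125a-3p mean minus the miR-neg mean. Levels of different probes cannot be set against each other. Of the 8 measured members, 1 passed an adjusted p of 0.05 in limma (lmFit and eBayes, two-sided, Benjamini-Hochberg over 23155 features), and it was higher. Over all features (genes, or probes where no symbol was matched) 159 passed, 0.687%, with 88 higher (0.380%) and 71 lower (0.307%). Quantile normalization moved that split to 37 higher and 46 lower. The SD of the log2 difference between 2 arrays was 0.34 (both miR-neg) or 0.33 (both miR-125a-3p), and 0.39 to 0.45 where the arrays belonged to different groups. All 15 member probes were well above background on all 4 arrays, and no spot was saturated.

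Hspb1 (NM_031970), which encodes the small heat shock protein known as Hsp25 or Hsp27, was the member that passed. Its processed signal was 454 and 419 in miR-neg, against 794 and 871 in miR-125a-3p. Relative to the 75th percentile the levels were -0.72 and -0.70 in miR-neg and 0.18 and 0.28 in miR-125a-3p. Both miR-125a-3p arrays therefore lay above both controls, and the gap between groups was wider than the difference within either. Hspb1 rose by 0.94 (SE 0.08, 95% confidence interval 0.71 to 1.16), or 1.91-fold. The miR-neg mean was -0.71 ± 0.01 and the miR-125a-3p mean 0.23 ± 0.07 (SD, n = 2 per group, limma adjusted p = 0.0479). The change was larger than that of 98.6% of all features. Its adjusted p lay close to the threshold, and 9 of 14 alternative settings ended the call, among them quantile normalization (0.0536) and each array left out in turn (0.177 to 0.270), while the change itself stayed between 0.83 and 0.99. It was measured by 1 probe.

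Hspb8 (NM_053612) encodes a small heat shock protein that works with the co-chaperone Bag3 in the autophagy of misfolded proteins. Its processed signal was 28.6 and 29.1 in miR-neg and 53.6 and 44.9 in miR-125a-3p, dim values where the lowest signal well above background on an array was 14.8 to 20.2. The levels were -4.71 and -4.55 in miR-neg and -3.71 and -4.00 in miR-125a-3p. The groups did not overlap, and the array of miR-125a-3p replicate 1 was the highest. The change of 0.77 (SE 0.14, 95% confidence interval 0.40 to 1.15), 1.71-fold, did not pass (limma adjusted p = 0.103). With normexp background correction, which added an offset of 50 to every signal, it was 0.22. An added constant of that size shrinks log2 changes of dim probes. Its part in this shift was not tested.

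**Figure D1:**
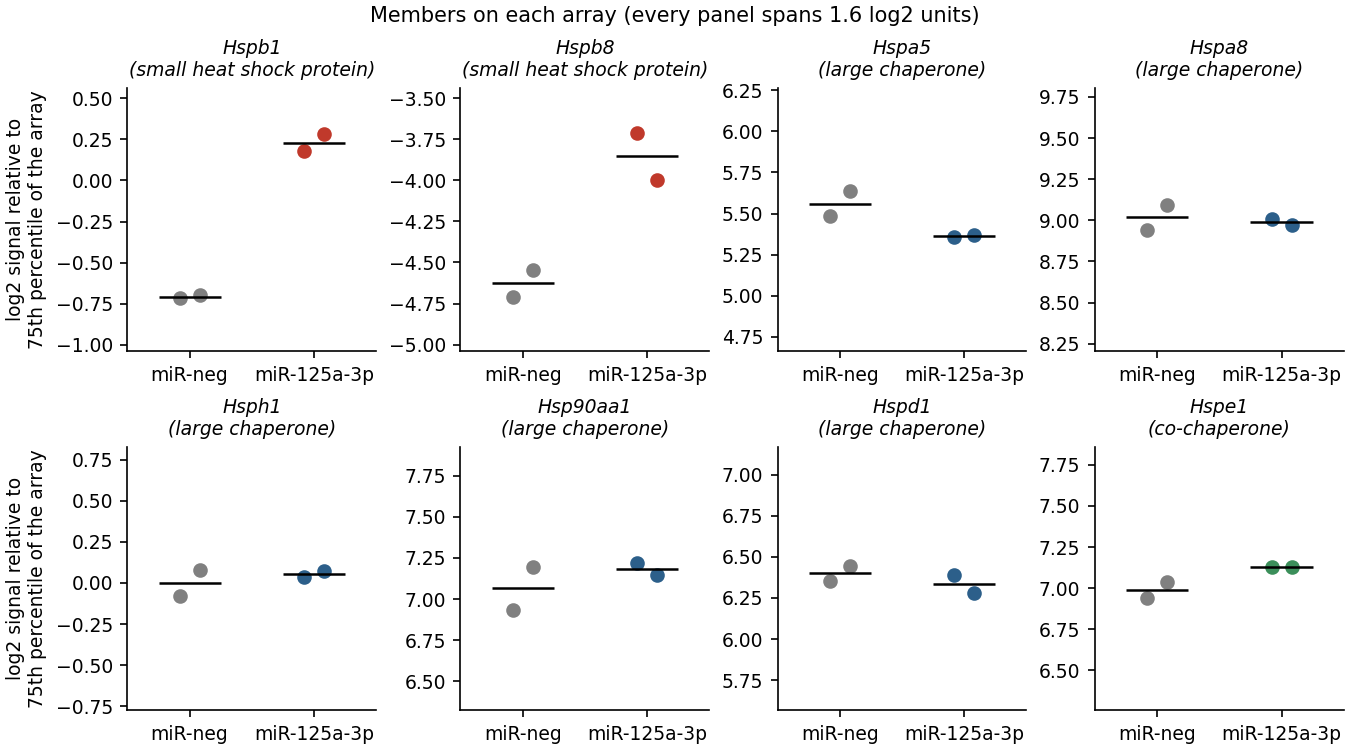
Level of each measured member on each array, as log2 signal relative to the 75th percentile of the array (y axis, every panel spanning the same range), for miR-neg (grey) and miR-125a-3p (coloured by class); points are arrays and lines are group means of 2 arrays. Hspb1 goes from -0.71 to 0.23 and Hspb8 from -4.63 to -3.85, while the other 6 members stay within 0.20 of their control means.

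Hspa8, Hsp90aa1 and Hsph1 are cytosolic. Hspa8 (NM_024351), the constitutive Hsp70 known as Hsc70, had levels of 8.94 and 9.09 in miR-neg and 9.01 and 8.97 in miR-125a-3p, so both miR-125a-3p arrays lay between the controls. The change was -0.03 (SE 0.09, 95% confidence interval -0.28 to 0.22, limma adjusted p = 0.891). Its other 3 probes had changes of 0.06, -0.02 and -0.15, and none of the 4 separated the groups. Hsp90aa1 (NM_175761), the stress-inducible cytosolic Hsp90, had levels of 6.93 and 7.19 in miR-neg and 7.22 and 7.15 in miR-125a-3p. It had a change of 0.12 (SE 0.12, 95% confidence interval -0.21 to 0.45, limma adjusted p = 0.635), with overlapping groups. At its second probe the change was 0.21 (SE 0.10, limma adjusted p = 0.355 over all kept probes), and there the groups did not overlap. Hsph1 (NM_001011901), the Hsp110 that recharges Hsp70 with ATP, had levels of -0.08 and 0.08 in miR-neg and 0.03 and 0.07 in miR-125a-3p. Both miR-125a-3p values fell between the controls, and the change was 0.05 (SE 0.09, 95% confidence interval -0.20 to 0.31, limma adjusted p = 0.797). Hspa8, Hsp90aa1, Hspd1 and Hspe1 have near-identical copies or pseudogenes in mammalian genomes, and whether these probes read them was not tested.

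Hspd1 and Hspe1 form the folding chamber of mitochondria. Hspd1 (NM_022229), the Hsp60 chaperonin, had levels of 6.35 and 6.44 in miR-neg and 6.39 and 6.28 in miR-125a-3p. The groups overlapped, and the change was -0.06 (SE 0.09, 95% confidence interval -0.31 to 0.18, limma adjusted p = 0.741). The other 2 probes of Hspd1 had changes of -0.03, with both miR-125a-3p arrays below the controls, and -0.07, with overlapping groups. Hspe1 (NM_012966), the Hsp10 lid of that chamber, had levels of 6.94 and 7.04 in miR-neg and 7.13 and 7.13 in miR-125a-3p. The groups did not overlap, but the change of 0.14 (SE 0.08, 95% confidence interval -0.08 to 0.36) did not pass (limma adjusted p = 0.424). Its second probe had a change of 0.13. The transcripts that share the promoter shown above thus had changes of opposite sign, -0.06 and 0.14, with intervals that overlap.

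Hspa5 (NM_013083), or BiP, is the Hsp70 of the endoplasmic reticulum and a textbook readout of its stress. Its levels were 5.48 and 5.64 in miR-neg and 5.36 and 5.37 in miR-125a-3p. Both miR-125a-3p arrays lay below both controls, a pattern that no other large chaperone showed at its tested probe. The change of -0.20 (SE 0.09, 95% confidence interval -0.45 to 0.05) did not pass (limma adjusted p = 0.338). In all, the groups did not overlap in 3 members on the higher side (Hspb1, Hspb8 and Hspe1) and in 1 on the lower side. Among all features the groups did not overlap in 52.9%, with 29.0% higher and 23.9% lower, so 4 of 8 members is a share near the background.

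The small heat shock proteins had a median change of 0.85 over 2 genes (0.77 and 0.94), and the large chaperones a median of -0.03 over 5 genes (-0.20 to 0.12). The median over all features was 0.01. With normexp the median of the 2 small heat shock proteins was 0.52, and over all 7 small heat shock proteins tested, members or not, the median was 0.14. The change of Hspb1 exceeded those of the 5 large chaperones by 0.82 to 1.13 and that of Hspe1 by 0.80. Its 95% confidence interval overlapped none of theirs. The change of Hspb8 exceeded theirs by 0.65 to 0.97 and that of Hspe1 by 0.63, and its interval overlapped that of Hsp90aa1 and no other. With normexp this separation was smaller, with Hspb8 at 0.22, Hspe1 at 0.13 and Hsp90aa1 at 0.11. No test is given for the difference between the classes, since the members were listed with results known and an exact permutation of 2 against 2 arrays cannot give a p below 0.333. In limma, 0 of the 5 large chaperones passed, 0 had an unadjusted p under 0.05, and 0 passed in any of 14 alternative settings. The intervals still allow changes of up to 0.45 for Hsp90aa1 and -0.45 for Hspa5, so equal levels are not shown.

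**Figure D2:**
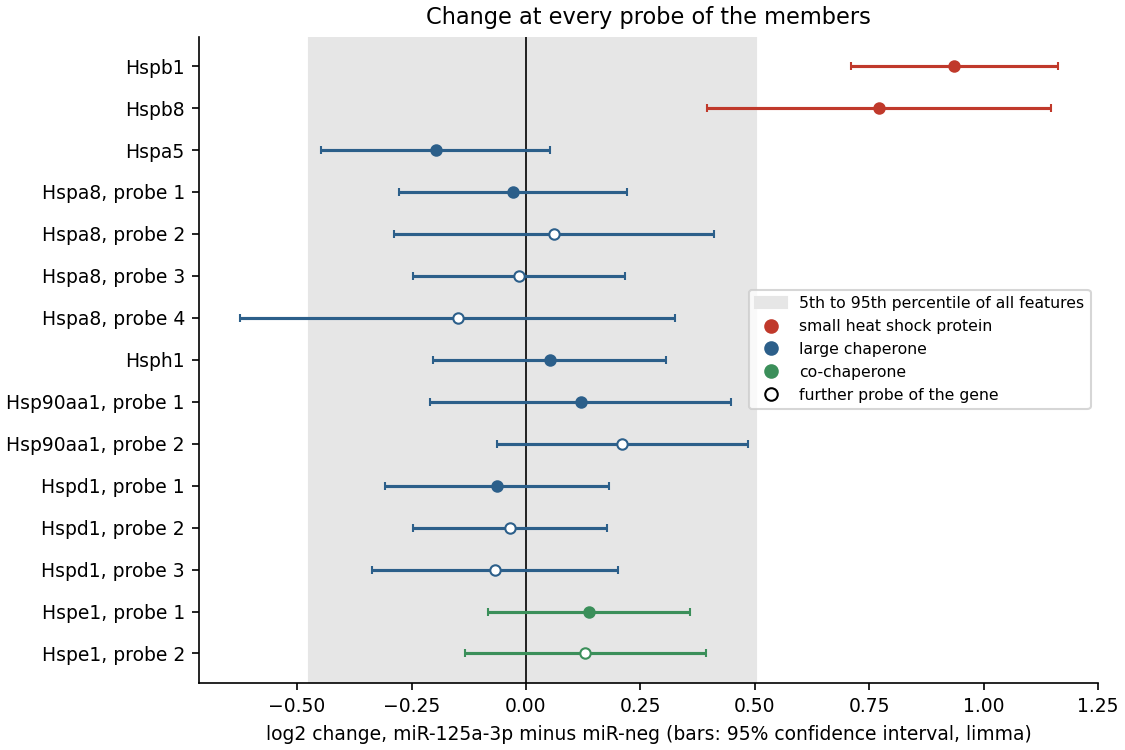
Change at each of the 15 member probes (x axis, log2 miR-125a-3p minus miR-neg, with 95% confidence intervals from limma); filled points are the probes tested for a gene, open points its other probes, and the grey band spans the 5th to 95th percentile of all features (-0.47 to 0.50). Hspb1 (0.94) and Hspb8 (0.77) lie beyond the band, and the 13 probes of the other members lie between -0.20 and 0.21.

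The wider chaperone network was read from 11 lists that together held 150 genes. Of these, 138 had a probe and 131 were tested, and 3 rose in limma, Hspb1, Serpinh1 and Mt2A. The count that fell was 0 in this setting, but 5 fell and 9 rose with normexp, and 8 fell and 9 rose with a variance trend in limma. Over all 23155 features 159 passed in this setting, 0.687%. With normexp 1601 of them passed (773 higher, 828 lower), and with a variance trend 2037 (1021 higher, 1016 lower). At an unadjusted p under 0.05 there were 27 network genes, 17 higher and 10 lower. Among all features 19.6% passed that level (10.7% higher and 8.84% lower). The network median was 0.04, and 77 genes lay above 0 where 53.0% of all features did. Serpinh1, the collagen chaperone Hsp47 of the endoplasmic reticulum, had levels of -1.44 and -1.32 in miR-neg and -0.33 and -0.27 in miR-125a-3p. It rose by 1.08 (SE 0.09, limma adjusted p = 0.0434), with 0.86 at its second probe. Mt2A, a metallothionein that HSF1 can also induce, rose by 1.96 (SE 0.10, limma adjusted p = 0.0367). Leaving out any 1 of the 4 arrays ended the calls on Serpinh1 and Mt2A, whose changes then ranged from 1.02 to 1.14 and from 1.85 to 2.06. Without the filter on dim probes neither passed (limma adjusted p = 0.248 for Serpinh1 and 0.229 for Mt2A), nor with the replicate number as a block (0.0971 and 0.0774), and quantile normalization ended the call on Serpinh1 (0.0522). The Serpinh1 change was 0.91 with normexp and 0.97 with the mean of its probes, and both kept its call.

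Among small heat shock proteins, 7 of the 10 listed were tested, with a median of 0.14. Hspb6, a small heat shock protein first known from muscle, had levels of 0.05 and -0.06 in miR-neg and 0.49 and 0.57 in miR-125a-3p. Its change of 0.54 (SE 0.09) did not pass (limma adjusted p = 0.0950), although its groups did not overlap. Cryab, the alpha-B crystallin chaperone of glia, had a change of 0.00 (SE 0.10, limma adjusted p = 0.985), with levels of 1.58 and 1.75 in miR-neg and 1.63 and 1.71 in miR-125a-3p. Hspb2 was at 0.14, Hspb9 at -0.08 and the lens crystallin gene Cryaa at -0.17. Hspb3, Hspb7 and Odf1 were well above background on 0 arrays. Of the 7 tested, Hspb1, Hspb8 and Hspb6 had an unadjusted p under 0.05, all higher, and the other 4 did not. Among all features 19.6% reached that level, 10.7% higher and 8.84% lower.

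Of 25 tested HSF1 target genes, Hspb1, Serpinh1 and Mt2A rose, 22 did not pass and 18 lay above 0 (median 0.12), where 0.687% of all features passed and 53.0% lay above 0. At an unadjusted p under 0.05 in limma 10 were higher and 2 lower, where 10.7% of all features were higher and 8.84% lower. The median rested on single arrays, at 0.01 without miR-neg replicate 1 and 0.18 without miR-neg replicate 2, and it was 0.06 under quantile normalization and with normexp. Bag3, the partner of Hspb8 and Hsp70 and a sensitive HSF1 target, had levels of -0.62 and -0.44 in miR-neg and 0.11 and 0.10 in miR-125a-3p. Its change of 0.63 (SE 0.10) did not pass (limma adjusted p = 0.0843). Hsp90ab1, the constitutive cytosolic Hsp90, was at -0.47 (limma adjusted p = 0.146) and -0.24 at its second probe, and the signalling regulator Rgs2 was at -0.36. Hspa1a, the inducible Hsp70 whose sequence is nearly that of Hspa1b, had levels of -3.35 and -2.94 in miR-neg and -2.81 and -3.12 in miR-125a-3p. Its groups overlapped, with a change of 0.18 (SE 0.20, limma adjusted p = 0.667). Among heat shock factors, 4 were tested, and Hsf1, the factor itself, had a change of -0.04 (0.06 at its second probe), Hsf2 one of -0.01, Hsf4 one of 0.08 and the HSF1-binding Hsbp1 one of 0.10. None of these 4 passed in limma, a count of 0 that was also 0 at an unadjusted p under 0.05.

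The partner proteins and the folding machines gave a count of 0 past the threshold in limma in each list in this setting. With a variance trend 3 DNAJ genes, 2 partners and 1 gene each of the Hsp70, Hsp90 and chaperonin lists passed. With normexp 2 DNAJ genes and 1 gene of each of the other 4 lists did. Over all 23155 features, 2037 passed with a variance trend and 1601 with normexp. Of 24 partners of Hsp70 and Hsp90, 19 lay above 0 (median 0.05), where 53.0% of all features did. Past the unadjusted level of 0.05 were 6, all higher, where 19.6% of all features were, 10.7% higher and 8.84% lower. These 6 partners included the Hsp90 immunophilin Fkbp4 (0.28), the nucleotide exchange factor Bag1 (0.25) and Stip1 (0.24), which links Hsp70 to Hsp90. Of 35 DNAJ co-chaperones, which deliver clients to Hsp70, 17 lay above 0 (median -0.0028). Dnajc12 was at 0.49, Dnajb4 at 0.48, Dnajb5 at 0.30 and Dnajc22 at -0.38. An unadjusted p under 0.05 was reached by 7 of the 35, a share near the 19.6% of all features. Of 11 chaperonin genes, 10 lay above 0 (median 0.11), and in 8 the miR-125a-3p arrays lay above both controls, where 29.0% of all features did so. An unadjusted p under 0.05 was reached by 1 of the 11, Cct6b (0.87, SE 0.08, limma adjusted p = 0.0525), while Cct4 was at 0.18 and Cct3 at 0.11. Of 12 Hsp70 and Hsp110 chaperones, 6 lay above 0 (median 0.01). Hspa2, an Hsp70 of germ cells and brain, was at -0.59 (SE 0.11, limma adjusted p = 0.108), Hspa14 at 0.19 and the mitochondrial Hsp70 Hspa9 at 0.15. Of the 4 Hsp90 genes, the mitochondrial Trap1 was at -0.06 and Hsp90b1 of the endoplasmic reticulum at 0.10 (list median 0.02). For the Hsp70 and for the Hsp90 list, 1 gene had an unadjusted p under 0.05.

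Of 21 endoplasmic reticulum chaperones, Serpinh1 rose, 20 did not pass and 13 lay above 0 (median 0.07). Among all features 0.687% passed and 53.0% lay above 0. The glycoprotein chaperones had opposite signs, with Canx at 0.50 (limma adjusted p = 0.0950, and 0.66 at its second probe) and Calr at -0.26 (limma adjusted p = 0.222). Sdf2l1 was at 0.27 and Creld2 at 0.22. Of 13 genes that signal the unfolded protein response, 11 lay below 0 (median -0.06). In limma 0 of the 13 passed, and 3 had an unadjusted p under 0.05, all lower. Among all features 19.6% reached that level, 10.7% higher and 8.84% lower. Those 3 were the stress-induced factor Atf3 (-0.71, limma adjusted p = 0.100), the sensor kinase PERK encoded by Eif2ak3 (-0.37) and Sel1l (-0.27), which serves the degradation of misfolded proteins. The stress-induced Ddit3, also called CHOP, was at -0.29. Of 11 mitochondrial chaperone genes, 6 lay above 0 (median 0.02), with a count of 0 in limma both past the threshold and at an unadjusted p under 0.05. The import proteins Dnajc19 and Pam16 were at 0.15 and 0.12, and the second probe of Dnajc19 was at -0.15.

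**Figure D3:**
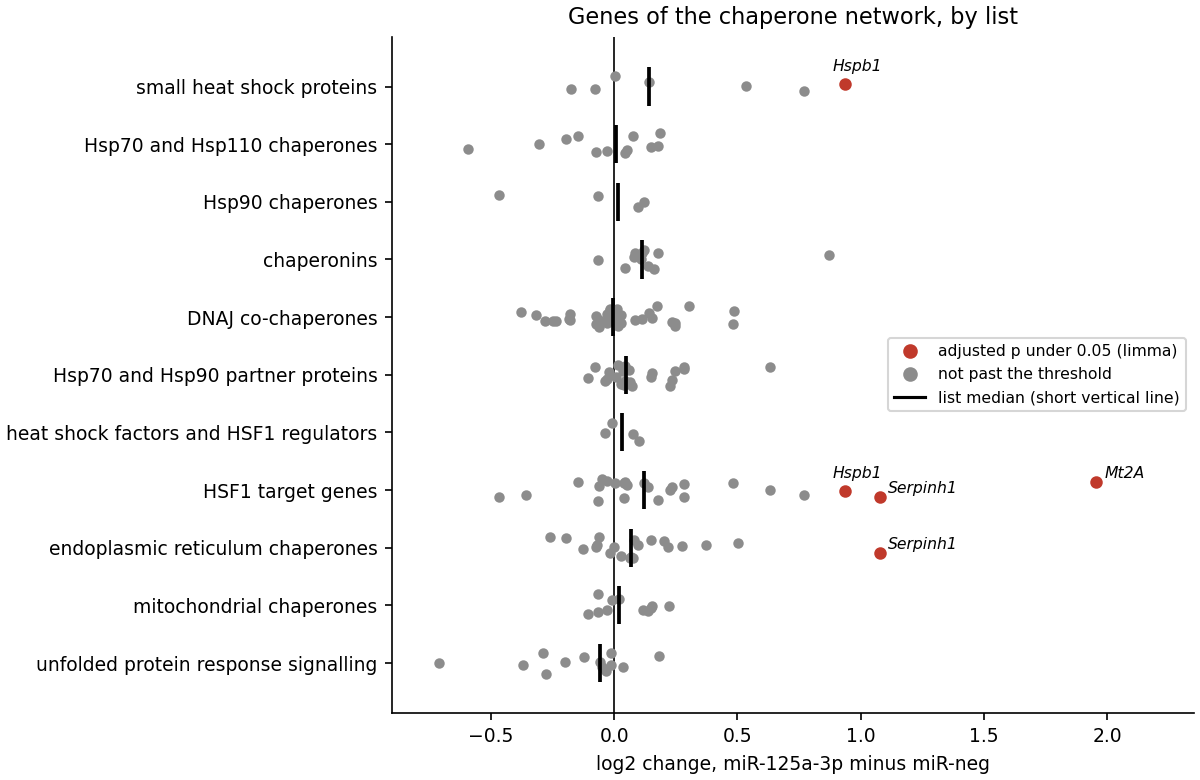
Change of each tested gene (x axis, log2 miR-125a-3p minus miR-neg) in the 11 chaperone network lists (y axis); a gene can stand in several lists, red points passed an adjusted p of 0.05 in limma and short vertical lines are list medians. The list medians lie between -0.06 and 0.14, and the red points are Hspb1, Serpinh1 and Mt2A.

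The labelled cell type was checked against its markers, which also gives values beside the rise of Hspb1. In bulk RNA, a change in the share of cells of a type and a change in RNA per cell cannot be told apart. All 11 tested OPC markers were well above background on all arrays, and 0 passed in limma (2 at an unadjusted p under 0.05). Among all features 0.687% passed, 19.6% reached that unadjusted level and 53.0% lay above 0. The summed level of the OPC markers relative to the 75th percentile was 375 and 400 in miR-neg and 382 and 400.0 in miR-125a-3p. The 2 at that unadjusted level were Pdgfra at -0.37 and Neu4 at 0.38, and Cspg4 was at 0.15. Of 14 astrocyte markers, 11 lay above 0 (median 0.21), Aldh1l1 rose by 1.90 (limma adjusted p = 0.0344), and Gfap was at 0.66, Aqp4 at 1.53 and Apoe at 1.10 without passing. Other astrocyte markers were lower on both miR-125a-3p arrays, with Glul at -0.46, Fgfr3 at -0.13 and Ndrg2 at -0.07, none of which passed. The summed level of the 14 astrocyte markers was 222 and 236 in miR-neg and 251 and 252 in miR-125a-3p, higher on both arrays. Such a sum follows its brightest probes and does not weigh the markers alike. Here the brightest was Aldoc, with levels of 7.29 and 7.38 in miR-neg and 7.42 and 7.45 in miR-125a-3p (change 0.10). For microglia and macrophages 12 markers were tested, with a median of 0.90 and 10 above 0. Among them C1qc and Cd14, higher on both miR-125a-3p arrays, were well above background on only 2 arrays. The filter on dim probes can admit such genes through the group where they are high. That can favour positive changes in this median and count. C1qa rose by 1.45, while Aif1 was at 1.56 and Tyrobp at 1.36. The probes of these 3 genes were dim, with miR-neg means of -4.63, -3.84 and -3.38, as was that of Aldh1l1 (-3.55). The miR-neg mean of the dim Hspb8 probe was -4.63. Cx3cr1 at -0.06, P2ry12 at 0.0013 and Itgam at 0.10 had overlapping groups, and Cd68 at -0.28 was lower on both miR-125a-3p arrays. The summed level of the 12 microglia and macrophage markers was 4.02 and 4.59 in miR-neg and 4.56 and 5.11 in miR-125a-3p, with overlapping groups. Its brightest probe was that of Cx3cr1, with levels of 0.91 and 1.03 in miR-neg and 0.83 and 0.98 in miR-125a-3p. Of 8 tested vascular, pericyte and fibroblast markers, 7 lay above 0 (median 0.78). The same limit of the filter holds here for Pdgfrb, well above background on 2 arrays, and for Col3a1, on 3. Tagln rose by 1.21, and the collagen genes Col3a1 and Col1a2 were at 1.32 and 0.65 beside the rise of the collagen chaperone Serpinh1. Their summed level was 0.954 and 1.00 in miR-neg and 1.36 and 1.52 in miR-125a-3p. The defining endothelial marker Pecam1 was well above background on 0 arrays, as were Ptprc, Lum and Dcn. The part of these other cells in the rise of Hspb1 and Serpinh1 was not tested. Neuron markers had a median of 0.09 (10 tested, 0 past the threshold in limma and 2 at an unadjusted p under 0.05, Snap25 at 0.48 and Stmn2 at 0.26). All 10 myelin markers lay below 0 (median -0.67), Aspa fell by 1.55, and Cldn11 and Mag were at -0.69 and -0.70. Further probes were at -0.79 for Aspa, a smaller fall, at -0.82 and -0.74 for Cldn11 and at -0.83 for Mag. At an unadjusted p under 0.05 in limma 8 of the 10 myelin markers were lower and 0 higher. At that level 7 of 14 astrocyte, 8 of 12 microglia and macrophage and 5 of 8 vascular, pericyte and fibroblast markers were higher. Lower were 1, 0 and 0 of them. Among all features 10.7% were higher and 8.84% lower. The limit of the filter holds for the microglia and vascular counts too.

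**Figure D4:**
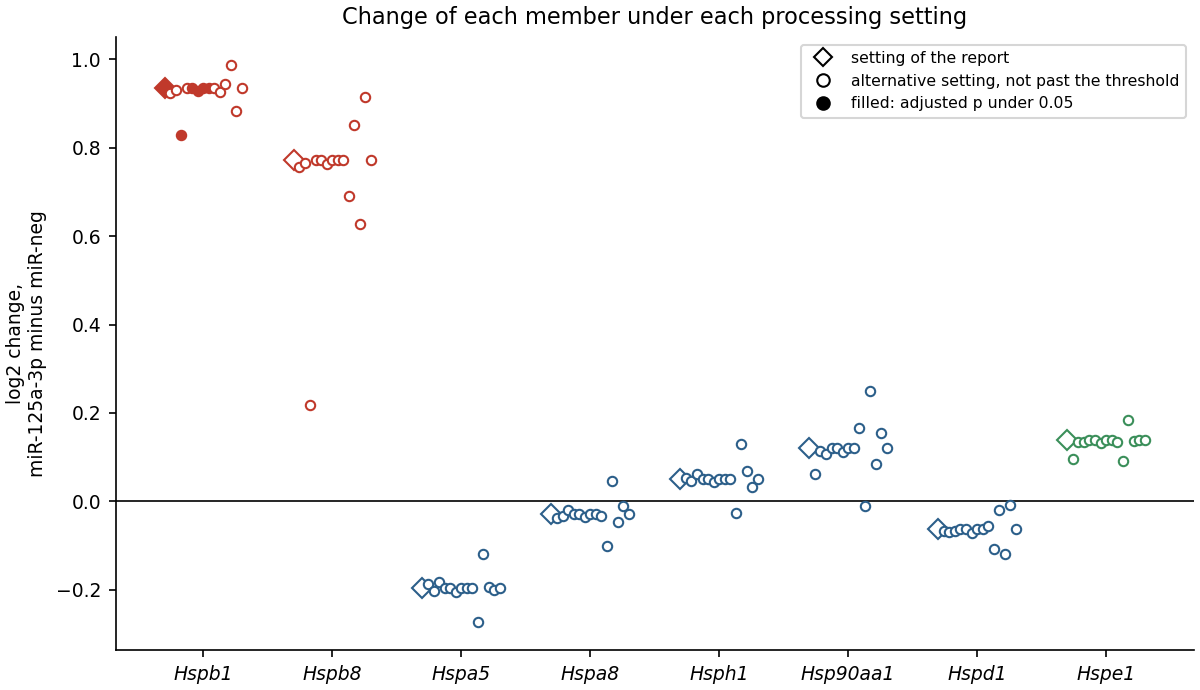
Change of each measured member (y axis, log2 miR-125a-3p minus miR-neg) in the setting of the report (diamond) and in 14 alternative settings (circles), filled where the adjusted p in limma was under 0.05. Hspb1 stays between 0.83 and 0.99, Hspb8 falls to 0.22 with normexp, and the other 6 members stay between -0.27 and 0.25.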

How the data were processed

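The deposited scanner files hold Cy3 intensities, background-subtracted and detrended array by array, per the file headers. Per the submitters' processing notes, the program was Agilent Feature Extraction 10.7.3.1. A deposited table of the authors holds log2 values. For 100% of 45533 probes it matched log2 of the scanner's processed intensity, less a constant for each array, to within 0.01. Its 75th percentile lay at 0, which settles scale, centring and direction. The medians of its columns lay at -4.07 and -4.15 (miR-neg), and at -4.08 and -4.14 (miR-125a-3p).

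Controls and outlier spots were dropped, which lost 65 probes. Log2 values of repeated spots were averaged, and the 75th percentile of each array was subtracted. Probes well above background on at least 2 arrays were kept, and the probe with the highest mean stood for its gene. Symbols came from RefSeq accessions of GRCr8 (21102 of 45598 probes, 46.3%). The array's grid is on rn4, so no gene coordinates are given. The test was limma 3.58.1 (R 4.3.3). It was also run on simulated data drawn from limma's own variance model, which cannot show how well that model holds for these arrays. The number of arrays limits the precision.

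The members and lists were chosen with earlier results of these data known. Named are all members, list genes past the threshold and up to 4 more per chaperone list (2 per marker list) by smallest p, and 6 defining markers. Hspb3, Hspb7, Hspb9, Odf1, Cryab, Hspa1a, Glul, Fgfr3, Ndrg2, Aldoc, Cx3cr1, P2ry12, Itgam, Cd68, C1qc, Cd14, Pdgfrb, Ptprc, Lum and Dcn were named after their values were seen. All 4 arrays came from 1 slide and 1 scan, and the groups lay at different positions along 1 axis of the slide, so that position and group cannot be told apart.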

Additional observations from a re-analysis of the deposited data

How the results depend on the processing

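The large chaperones and Hspe1 did not pass in any of 14 alternative settings, and Hspb8 did not either (adjusted p 0.0581 to 0.328). The count of 159 features became 83 under quantile normalization, 1601 with normexp, 601 on probes above background on all 4 arrays, 2037 with a variance trend, and 0 without the filter on dim probes (3963 at an unadjusted p under 0.05 in limma). It was 0 in every fit with 1 array left out (0 to 0, with 2767 to 4124 at an unadjusted p under 0.05), where a lone array is assumed to vary like the other group. The count of 3 chaperone network genes became 1, 14, 5, 17 and 0 in the same order (18 of 138 at an unadjusted p under 0.05 without the filter), and 0 to 0 with 1 array left out (16 to 21 at that level). The Hspb1 change was 0.92 under quantile normalization (adjusted p = 0.0536), 0.93 with median centring (0.0505), 0.94 with the mean of probes (0.0504), where its own values are the same, and 0.94 without the filter (0.259). With 1 array left out it ranged from 0.88 to 0.99. Normexp, probes above background on all 4 arrays, the deposited table, a variance trend and robust variances kept its call (adjusted p 0.000428 to 0.0484). Normexp lowered the median of the small heat shock proteins to 0.52. With 1 array left out, Hsph1 ranged from -0.027 to 0.13, Hsp90aa1 from -0.011 to 0.25 and Hspa8 from -0.10 to 0.045, so these 3 changes near 0 have no settled sign. With the replicate number as a block, which was also the position on the other slide axis, the Hspb1 change was 0.94 (adjusted p = 0.113), 0 features passed (3948 at an unadjusted p under 0.05 in limma), and 0 chaperone network genes did (19 at that level). The deviations of arrays that share a number correlated at 0.0505 across features. With 2 pairs, pairing by number is not settled. What caused these shifts was not tested. Probes near background, such as that of Hspb8, are limited by signal over background.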
